A study of Homo sapiens with 3 samples.

Results

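Clusters of wide p300/CBP peaks were defined by joining neighbouring peaks along the genome. The peaks of at least 250 bp on chromosomes 1 to 22 and X were pooled from the siCTL and siFra-1 lists, overlapping peaks were merged into sites, and sites no further apart than a set distance of between 12 and 13 kb, the one customary for joining enhancers, were made one locus. A cluster was a joined locus of 3 or more sites. This gave 420 clusters with 1891 sites. They held 2715 of the 9612 wide peaks, 989 of the 3644 in the siCTL list and 1726 of the 5968 in the siFra-1 list, while the lists together hold 122221 peaks of any width. The members were thus chosen by peak width and spacing in the same lists that are compared, and the numbers of sites and their widths are given as a description.

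The peaks come from ChIP-seq of p300/CBP in MDA-MB-231, an invasive triple-negative breast cancer cell line. For 72 h the cells had been under a control siRNA (siCTL) or a mix of 3 siRNAs directed at Fra-1 (siFra-1), at 4.5 nM, and fixation took 7 min. Each condition is 1 library made from pooled immunoprecipitations, and an input sample was not analysed here. No difference can therefore be set against a spread between replicates, no test between conditions was possible, and the 95% intervals below cover counting error over peaks only, with neighbours that depend on each other. Read depth and peak height are not given.

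The acetyltransferases p300 and CBP are brought to DNA by transcription factors, acetylate histones and mark active enhancers. Enhancers that lie close together can be joined into clusters, and the longest and most heavily occupied of these are often called super-enhancers, which lie near genes that define the state of a cell. Fra-1, the product of FOSL1, belongs to the Fos family, whose members dimerise with Jun as AP-1, and this line makes much of it. AP-1 binds TGAGTCA or TGACTCA, and in breast cancer cells it often shares enhancers with TEAD factors, the DNA-binding partners of the Hippo effectors YAP and TAZ, which recognise GGAATG.

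To show what such sites look like, stretches of 100 bp of the hg19 plus strand are given with matches to AP-1, TEAD (GGAATG) and RUNX (TGTGGT), on either strand, in capitals. The first 4 come from the widest site in both lists that holds an AP-1 match in each of 4 clusters with many sites. The site of the cluster 159 kb from the TSS of TOMM20 lies between genes and measured 950 bp in siCTL and 800 bp in siFra-1. The other 3 are intronic and were wider in siFra-1, with 700 and 1800 bp in ITPK1, 550 and 750 bp in ACTN4, and 550 and 600 bp in VMP1.
chr1:235116530-235116629 (cluster nearest to TOMM20): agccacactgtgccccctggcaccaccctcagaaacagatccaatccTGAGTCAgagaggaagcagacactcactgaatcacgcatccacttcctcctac
chr14:93502909-93503008 (ITPK1): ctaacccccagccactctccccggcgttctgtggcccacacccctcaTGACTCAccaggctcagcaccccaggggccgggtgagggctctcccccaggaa
chr19:39157104-39157203 (ACTN4): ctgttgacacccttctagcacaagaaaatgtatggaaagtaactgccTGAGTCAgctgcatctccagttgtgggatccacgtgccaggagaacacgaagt
chr17:57906627-57906726 (VMP1): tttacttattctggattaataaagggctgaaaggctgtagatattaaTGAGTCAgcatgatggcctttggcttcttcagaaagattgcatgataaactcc

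The next 4 show sites wide in a single list, taken from clusters with more covered length in that list. The sites in an intron of CMKLR1 (1100 bp) and in an intron of the noncoding gene LINC02869, 134 kb from TGFB2 (1050 bp), were wide in siFra-1 only. A narrow siCTL peak overlapped the LINC02869 site, and no siCTL peak overlapped the CMKLR1 site. The CMKLR1 stretch is the centre of a site without AP-1 and holds no match, but the whole site holds 3 TEAD matches and 1 RUNX match. The LINC02869 stretch holds an AP-1 match, around which it was placed, as were the stretches of the siCTL-only sites. The sites in an intron of ERGIC1 (350 bp) and over an exon of RAD51B (300 bp) were wide in siCTL only, and each stretch holds an AP-1 and a RUNX match.
chr12:108696602-108696701 (CMKLR1, siFra-1 only): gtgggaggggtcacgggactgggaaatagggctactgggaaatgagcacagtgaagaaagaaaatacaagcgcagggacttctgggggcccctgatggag
chr1:218654137-218654236 (LINC02869, siFra-1 only): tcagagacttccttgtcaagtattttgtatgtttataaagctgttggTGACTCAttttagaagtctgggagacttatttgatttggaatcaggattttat
chr5:172309027-172309126 (ERGIC1, siCTL only): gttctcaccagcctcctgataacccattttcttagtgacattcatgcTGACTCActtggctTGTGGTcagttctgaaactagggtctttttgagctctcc
chr14:69152270-69152369 (RAD51B, siCTL only): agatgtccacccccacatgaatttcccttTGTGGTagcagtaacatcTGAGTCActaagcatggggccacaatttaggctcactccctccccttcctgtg

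The last 2, chosen after their clusters were seen, lie between genes beside FOSL1 itself and just upstream of ANKRD1, a target of YAP. The FOSL1 site measured 650 bp in both lists and its stretch holds 2 AP-1 matches. The ANKRD1 site measured 700 bp in siCTL and 900 bp in siFra-1, and its stretch holds a TEAD match on the minus strand.
chr11:65678992-65679091 (FOSL1): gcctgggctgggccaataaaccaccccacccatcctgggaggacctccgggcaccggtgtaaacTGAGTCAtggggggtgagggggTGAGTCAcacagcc
chr10:92680882-92680981 (ANKRD1): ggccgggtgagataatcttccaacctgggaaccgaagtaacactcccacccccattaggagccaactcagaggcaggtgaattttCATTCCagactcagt

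The clusters with most sites lay beside unassembled DNA. In hg19, gaps of 1 Mb or more in the assembly are mostly centromeres and heterochromatin. Of the 420 clusters, 31 with 447 sites were within 1 Mb of such a gap, and the 13 clusters with most sites, 12 to 53 each, were all among them. The cluster at chr10:42355252-42404651 had 53 sites, 32 in siCTL and 45 in siFra-1, that at chr4:49093752-49157051 had 52, and that at chr16:46385852-46435551 had 42. In the cluster at chr2:92269552-92326151, 3 of the 38 sites were wide in siCTL and all 38 in siFra-1. Near gaps, 98% of the clustered sites lay between genes (95% interval 96.2 to 98.9), the nearest protein-coding TSS was a median of 535 kb away and neighbouring sites were a median of 0.5 kb apart. Input DNA, which would show background at such loci, was not analysed here. The other 389 clusters, with 1444 sites, are called arm clusters. The results on peaks, motifs and position below are for these and, where marked, for all clusters.

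**Figure D1:**
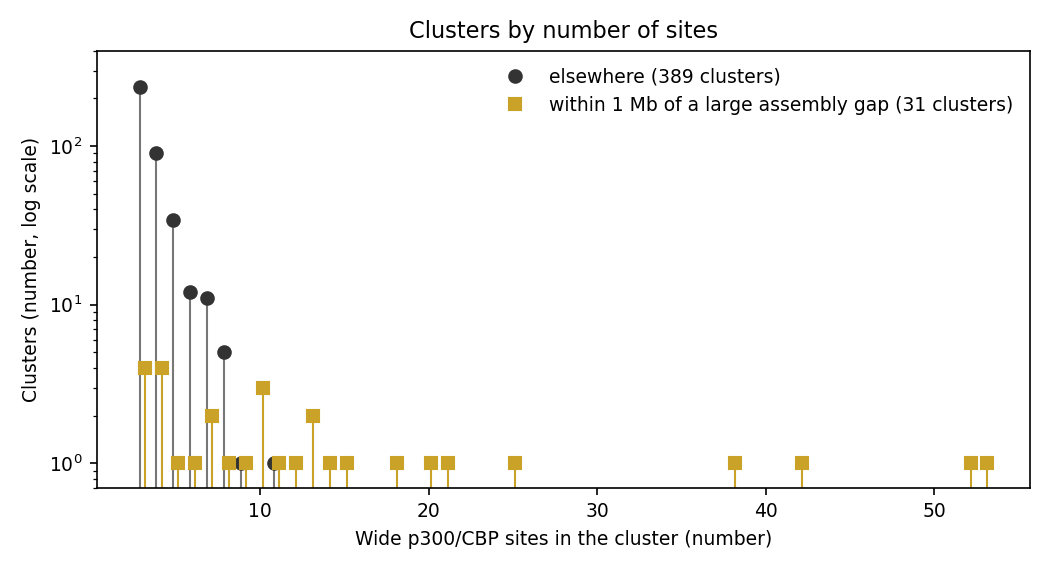
Number of clusters (vertical axis, log scale) by number of wide p300/CBP sites per cluster (horizontal axis), for the 31 clusters within 1 Mb of a large assembly gap (squares) and the other 389 (circles). Arm clusters end at 11 sites, and every cluster of 12 or more lies near a gap.

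Arm clusters were mostly small. Exactly 3 sites were found in 235 of the 389 clusters and 5 or more in 64, and the median span was 11.2 kb, from 1.05 to 79.9 kb. Neighbouring sites were a median of 3.05 kb apart, and sites covered a median of 14.8% of the span. At the edges of the rule, 777 loci of the whole genome had 2 sites and 239 had 3. The covered length in siFra-1 was 1.89 times that in siCTL in both these sets of loci, and 37 gaps between sites were up to 0.5 kb below the joining distance while 25 were up to 0.5 kb above it. At the width minimum, 214 siCTL and 311 siFra-1 members measured exactly 250 bp, and 219 siCTL and 244 siFra-1 peaks of 200 bp inside the clusters were just too narrow to be members.

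To ask whether the clusters depended on one of the conditions, the lists were compared cluster by cluster. In all clusters the siFra-1 list held 1.75 times as many member peaks as the siCTL list (95% interval 1.61 to 1.89) and 1.93 times the covered length, 809 kb against 419 kb. In arm clusters these ratios were 1.68 (1.54 to 1.84) and 1.85, with 1319 against 785 peaks and 639 against 346 kb. Wide peaks outside clusters had ratios of 1.60 (1.52 to 1.68) and 1.77, and the intervals of the peak ratios inside arm clusters and outside overlap. The siFra-1 list has more wide peaks in all. With its widest 3644 peaks alone, the member peak ratio over all clusters was 1.09 (0.992 to 1.2) and the covered length ratio 1.47. Without peaks near large gaps, and with the siFra-1 list cut in the same way, these were 1.13 (1.01 to 1.27) and 1.45. The cut keeps the widest siFra-1 peaks beside siCTL wide peaks of every width, which by itself raises the length ratio.

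Most clusters had more covered length in siFra-1. Among arm clusters, 328 had more in siFra-1 (84.3%), 48 less and 13 the same. The length was at least 1.5-fold higher in siFra-1 in 254 of the 389 (65.3%) and at least 1.5-fold higher in siCTL in 17 (4.37%). Over the 4826 loci of any number of sites, the shares were 58% and 18.8%. A locus of 1 site in a single list always passes in the direction of that list, which makes these shares no like comparison. Over the 777 loci of 2 sites they were 62.9% and 12.9%. A wide siCTL peak was absent from 47 arm clusters, a wide siFra-1 peak from 0, and every site was wide in siFra-1 in 284 and in siCTL in 65. Both kinds of single-list site stood side by side in 74 arm clusters.

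**Figure D2:**
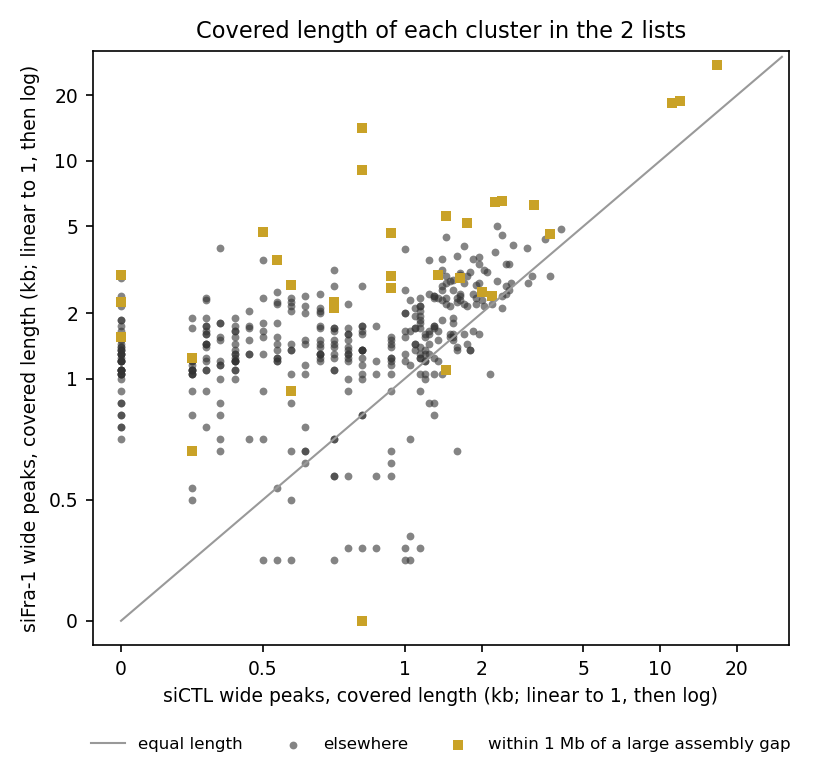
Length covered by siFra-1 wide peaks (vertical axis, kb) against that covered by siCTL wide peaks (horizontal axis, kb) in each of the 420 clusters, on axes that are linear up to 1 kb and logarithmic above, where each point is a cluster and the line marks equal length. Most points lie above the line, 357 of 420, and those near large gaps (squares) reach the greatest lengths.

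Sites in clusters were shared between the lists more often than other sites. Of the 1444 sites in arm clusters, 642 (44.5%, 95% interval 41.9 to 47.0) were wide in both lists, against 32.6% (31.3 to 33.9) of the 5112 other arm sites, a difference of 11.9 percentage points (9.01 to 14.7). With the clusters near gaps the difference was 9.06 points (6.51 to 11.6). The shared share was 31.0% in arm loci of 1 site, 36.4% in loci of 2, 41.8% in loci of 3, 48.6% in loci of 4 and 45.4% in loci of 5 or more, whose last 3 intervals overlap. The gain of shared sites was matched by fewer siCTL-only sites, 8.93% in arm clusters against 18.1% elsewhere (15.9% of all sites), a difference of -9.12 points (-10.9 to -7.23). The siFra-1-only share, 46.6% in arm clusters and 49.2% of all sites, differed from that of the other arm sites by -2.75 points (-5.65 to 0.172). Clustered sites were also wider, a median of 450 bp against 350 bp, and the part of width in this comparison was not tested.

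Shared sites tended to be wider after Fra-1 silencing. In arm clusters, 426 of the 642 shared sites were wider in siFra-1, 126 narrower and 90 of equal width, with a median difference of 100 bp. Outside clusters 60.3% (57.9 to 62.6) of the shared sites were wider in siFra-1, against 66.4% (62.6 to 69.9) in arm clusters. These widths are part of how the clusters were chosen.

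Clustered on its own, the siCTL list gave 144 clusters and the siFra-1 list 363, or 127 and 334 without peaks near large gaps. Of the 127, 92 (72.4%) overlapped a cluster of the siFra-1 list, and of the 334 the same 92 overlaps made up 27.5%. With the siFra-1 list reduced to its widest peaks, equal in number to those of siCTL, 146 clusters remained without peaks near gaps.

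The narrower peaks, of 100 to 200 bp, were not used to find the clusters. Some of them lie on sites that are wide in the other list. Their density and ratio inside clusters are therefore not independent of the rule and are given as a description. They were far denser inside arm clusters than elsewhere in both lists, with 209 per Mb in siCTL and 140 per Mb in siFra-1, against 26.9 and 10.8 per Mb of the DNA outside arm clusters that is over 1 Mb from large gaps. In contrast to wide peaks, they were more numerous in siCTL, 1030 against 693 inside arm clusters, a ratio of 0.673 (0.610 to 0.742). Outside clusters the ratio was lower, 0.402 (0.397 to 0.407), with 75429 and 30311 peaks. With the clusters near gaps the ratio inside was 0.767 (0.714 to 0.824). Many sites wide in a single list were not empty in the other one: a narrow siCTL peak overlapped 297 of the 673 siFra-1-only sites of arm clusters (44.1%), and a narrow siFra-1 peak 72 of the 129 siCTL-only sites (55.8%). The differences from sites outside clusters were 1.48 points (-2.7 to 5.72) and 6.41 points (-2.79 to 15.3) on the arms. With the clusters near gaps they were 10.1 points (6.33 to 13.8) and 13.5 points (5.52 to 21.1).

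AP-1 motifs were found least often at sites wide in siFra-1 only. In the central 200 bp, 24.1% of the 1444 sites of arm clusters held TGAGTCA or TGACTCA, against 26.4% of the other arm sites, a difference of -2.29 points (-4.75 to 0.276). For siFra-1-only sites alone the difference was -4.43 points (-7.32 to -1.24), and with the looser motif TGANTCA over all arm sites it was -3.57 points (-6.23 to -0.818). Of windows moved by 2 kb, 4.16% and 3.35% held TGAGTCA or TGACTCA. Within arm clusters the share was 33.6% for shared sites (n = 642), 28.7% for siCTL-only sites (n = 129) and 14.1% for siFra-1-only sites (n = 673). The difference of siCTL-only minus siFra-1-only sites was 14.6 points (6.92 to 23.2) in arm clusters and 12.7 points (9.35 to 16.0) outside. With the clusters near gaps, where 1.12% of sites held the motif, the difference of clustered minus other sites was -7.48 points (-9.56 to -5.31). With a minimum width of 150 bp the difference turned to 1.28 points (0.265 to 2.31) in favour of clusters.

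Most arm clusters held AP-1 in a part of their sites. Over the whole length of the sites, 98 of the 389 arm clusters (25.2%) had no site with AP-1, 140 had 1 and 151 (38.8%) had 2 or more, while 12 had it in every site. The most sites with AP-1 in an arm cluster was 6.

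GGAATG, bound by TEAD factors, was found in 28.0% of the central windows in arm clusters and in 27.4% elsewhere on the arms, a difference of 0.533 points (-2.04 to 3.19), above the 12.2% and 11% of moved windows. It was less frequent at siCTL-only sites (18.6%) than at siFra-1-only sites (27.2%) of arm clusters, by 8.59 points (-15.3 to -0.343 for the difference of siCTL-only minus siFra-1-only). TGTGGT, bound by RUNX factors, followed the same order, 19.4% against 29.0%, and so did TTGCNNAA, bound by C/EBP factors, 3.1% against 8.62%. The 3.1% is 4 of 129 sites, beside 4.65% of their moved windows. Arm sites outside clusters had the same order: 19.4% against 28.0% for GGAATG, 20.2% against 28.7% for TGTGGT and 6.61% against 9.95% for TTGCNNAA. The C/EBP motif was less frequent in arm clusters than elsewhere, 5.89% against 8.39%, by -2.51 points (-3.86 to -0.984). Its moved windows had 4.64% and 5.69%. GGGCGG, bound by SP and KLF factors, was more frequent in arm clusters than elsewhere, 9.76% against 7.9%, a difference of 1.86 points (0.24 to 3.65). The median GC content was 50% against 47.5%. Windows moved by 2 kb differed in the same direction, 6.51% against 4.36%, so the difference was not particular to the sites. The shares of CAGCTG (E-box), CCGGAAG (ETS), TGACGTCA (CRE), NF-kB and NFI motifs had differences between arm clusters and other arm sites whose intervals include 0. With the clusters near gaps the differences were 6.59 points (4.15 to 9.06) for GGAATG, -5.7 (-7.87 to -3.46) for TGTGGT, -3.46 (-4.64 to -2.16) for C/EBP, -0.31 (-1.66 to 1.15) for GGGCGG and -2.94 (-4.62 to -1.16) for CAGCTG. Near gaps GGAATG was found in 54.4% of clustered sites and in 42.7% of moved windows. Pericentromeric satellite DNA is known to be built of repeats of GGAAT, and whether these sites lie in such repeats was not tested.

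**Figure D3:**
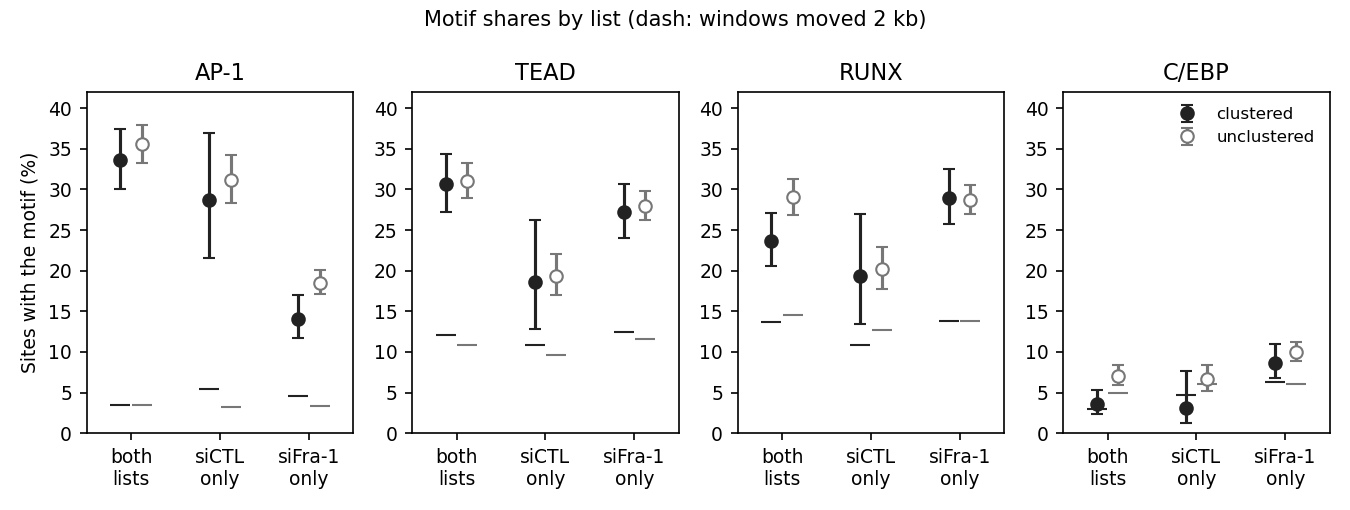
Percentage of sites with a match in the central 200 bp (vertical axis) for AP-1, TEAD, RUNX and C/EBP motifs, by list (horizontal axis), for sites in arm clusters (filled) and other arm sites (open), with 95% Wilson intervals and the share in windows moved by 2 kb (dashes). For AP-1 the siFra-1-only sites are lowest, 14.1% in clusters and 18.5% outside, whereas for TEAD and RUNX the siCTL-only sites are lowest.

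Arm clusters lay mainly inside genes and away from promoters. Of their sites, 62.3% were intronic, against 58.3% of the other arm sites, 8.59% exonic and 29.2% between genes. The intronic share thus differed by 4 points (1.14 to 6.82), but with the clusters near gaps by -9.77 points (-12.4 to -7.14), with 48% against 57.8%, and 45.4% of all clustered sites lay between genes, against 34.5%. A window of 3 kb around the TSS of a protein-coding gene held 53 sites of arm clusters (3.67%) and 5.26% of the others, a difference of -1.59 points (-2.66 to -0.349), or -2.33 points (-3.25 to -1.31) with the clusters near gaps. Of the 389 arm clusters, 228 overlapped a protein-coding gene, 169 lay wholly inside one, 44 contained a protein-coding TSS and 104 were over 100 kb from any. By chromosome, clusters took 40.6% of the wide arm sites of chromosome 20 and 34.2% of chromosome 17, but 10.9% of chromosome 4 and 4.11% of chromosome X. On each chromosome with siCTL members in arm clusters the covered length was higher in siFra-1, by 1.23-fold (chromosome 22) to 2.26-fold (chromosome 16).

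The 12 arm clusters with most sites, where ties in number went to the greater merged length of the sites, held 95 sites. Of these, 43 were wide in siCTL and 88 in siFra-1, with 36 shared, 52 siFra-1-only and 7 siCTL-only. All 12 had more covered length in siFra-1, as had 84.3% of arm clusters. The ranking counted sites of both lists together, so siFra-1-only sites helped to place these clusters and the direction is a description. The cluster with most sites, 11 over 79.9 kb, lay at chr8:128864252-128944151 in the noncoding gene PVT1, 117 kb from the TSS of MYC, a growth-promoting transcription factor. It was among those with the smallest change: 8 sites were wide in siCTL and 9 in siFra-1, with 6 shared, and the covered lengths were 3000 and 4000 bp. The cluster at chr1:235092952-235133401 had 9 sites and overlapped the noncoding genes LINC02971 and LNCATV. The nearest protein-coding TSS, 159 kb away, was that of TOMM20, which encodes a mitochondrial import receptor. All 9 were wide in siFra-1 and 4 in siCTL (5000 and 2300 bp), and 6 held AP-1.

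Of the 5 clusters with 8 sites, 4 overlapped a protein-coding gene. In ZMIZ1, a transcriptional coactivator, all 8 sites were wide in siFra-1, against 3 in siCTL, and the covered lengths were 3550 and 1400 bp. At DNAJB12, a chaperone of the endoplasmic reticulum, 7 sites were wide in siFra-1 and 5 in siCTL (4550 and 2400 bp). In SUSD1 these were 7 and 2 sites (3500 and 1250 bp). The cluster at chr20:49016652-49067901, 59 kb from PTPN1, a tyrosine phosphatase, had 7 and 2 sites, of which 1 was shared (3950 and 1000 bp).

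The other 5 clusters are those of greatest merged length among the 11 arm clusters with 7 sites. At VMP1, an autophagy gene that overlaps MIR21, 6 sites were wide in siFra-1 and 5 in siCTL, and all 7 overlapped a peak of some width in both lists (3600 and 1950 bp). At ACTN4, an actin crosslinker, these were 6 and 4 sites and 3350 and 2550 bp. At ITGB2, an integrin chain of leukocytes, all 7 sites were wide in siFra-1 and 2 in siCTL, and the 2 shared sites measured 1000 and 1200 bp in siFra-1 and 750 and 950 bp in siCTL. ITPK1, an inositol phosphate kinase, had 7 and 3 sites, with a site of 1800 bp in siFra-1 and 700 bp in siCTL. CMKLR1, a receptor for chemerin, had 7 and 1.

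**Figure D4:**
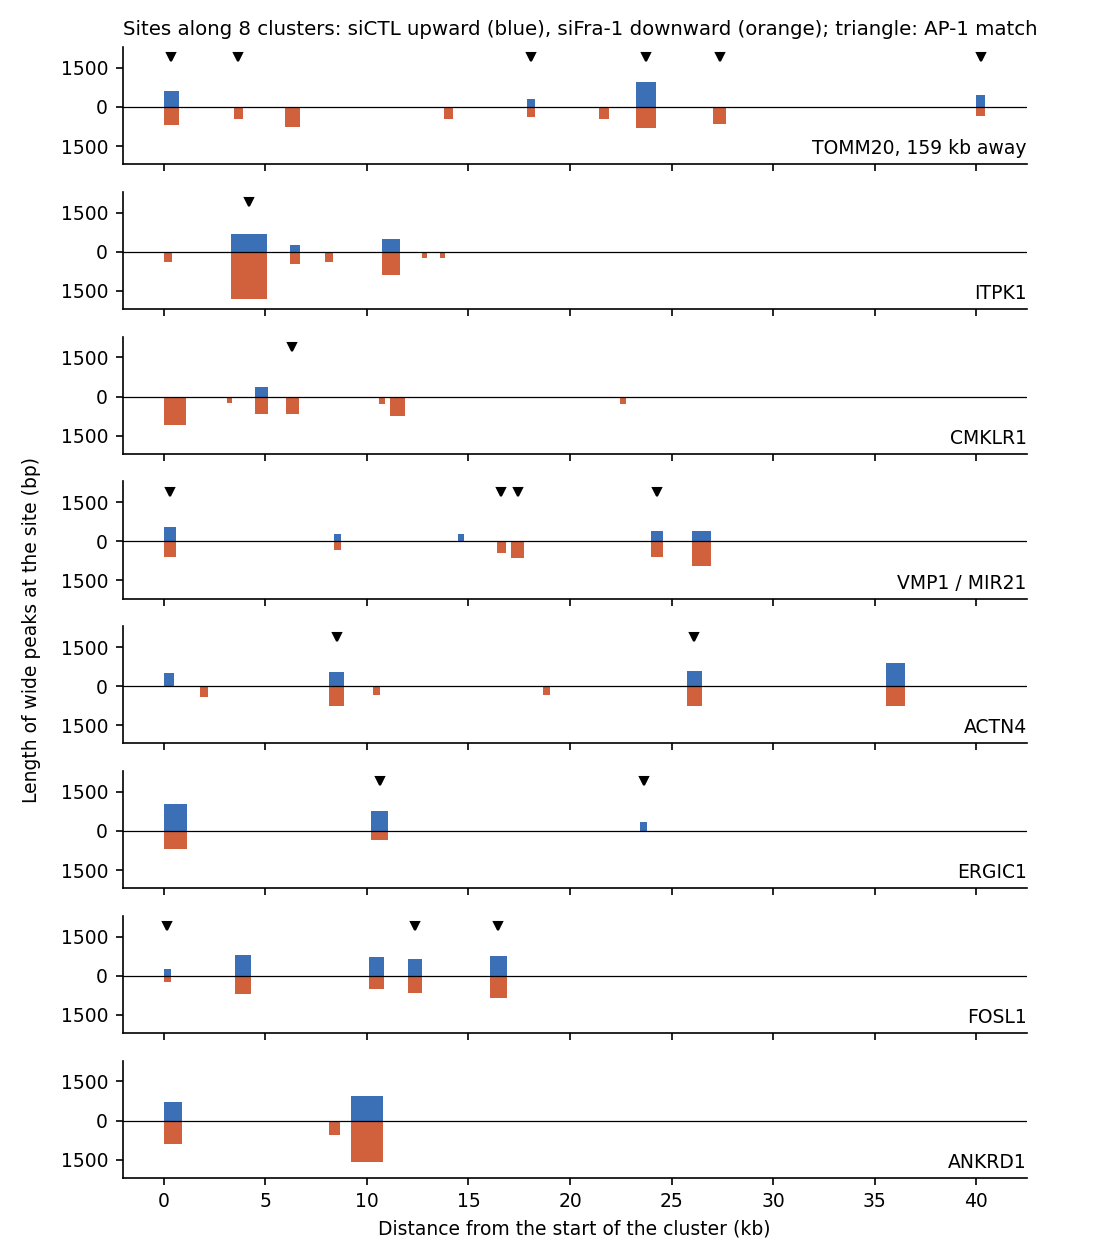
Wide sites along 8 clusters, drawn at their distance from the start of the cluster (horizontal axis, kb), with the length of the wide peaks at each site (vertical axis, bp) upward for siCTL and downward for siFra-1 and triangles over sites with an AP-1 match. The CMKLR1 cluster has 1 siCTL site among 7, the FOSL1 cluster has all 5 sites in both lists, and the ERGIC1 cluster is longer in siCTL.

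The largest differences in favour of siFra-1 were at CMKLR1 (4000 against 350 bp), ITPK1 (4450 against 1450 bp), the locus near TGFB2, a TGF-beta ligand (3500 against 500 bp), the locus near PTPN1, and SLC1A7, a glutamate transporter (2900 against 0 bp, with siCTL narrow peaks at 2 of its 5 sites). Of the 33 sites of these 5 clusters, 8 (24.2%) held AP-1 over their whole length. The largest differences in favour of siCTL were smaller: ERGIC1, of the secretory pathway (2150 against 1050 bp, in a cluster 87.2 kb from DUSP1, a MAP kinase phosphatase), RAD51B, a DNA repair gene (1600 against 700 bp), the locus at chr16:88268252-88276501, 173 kb from the zinc finger gene ZNF469 (1150 against 300 bp), the locus at chr9:69654702-69663501 (1050 against 250 bp) and STK40, a kinase-like gene (1000 against 250 bp). Of their 16 sites, 9 (56.2%) held AP-1, against 35.0% of all sites in arm clusters. The clusters were chosen for their differences in covered length, which are therefore given as a description. The AP-1 shares rest on the 33 and 16 sites of clusters so chosen, have no interval here and are a description too.

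Clusters lay near genes of several lists, with the highest share in the Hippo list. The lists were chosen with earlier results of these data known. As background, a cluster was within 100 kb of the TSS of 827 of all protein-coding genes (4.12%), whether or not they are expressed in this line. In the Hippo list (effectors, TEADs and targets of YAP and TAZ) it was so for 8 of 20 genes, in the integrin, focal adhesion and actin list for 8 of 30, among chemokines and cytokines for 4 of 15, among receptor tyrosine kinases, ligands and ERK feedback genes for 6 of 26, in the AP-1 family for 3 of 14, and among matrix and protease genes for 5 of 26. Of the viewpoint genes that the study had chosen for their response to Fra-1, a choice that is not independent of these cells, 5 of 34 were near a cluster. The counts were 2 of 21 for the TGF-beta pathway, 2 of 16 for housekeeping genes, 0 of 4 for RUNX factors, 0 of 12 for mesenchymal transition factors and markers, and 0 of 10 for p300, CBP and coactivators. For markers of other cells, the counts were 0 of 18 for luminal epithelium and 0 of 16 for liver and neurons. For blood cells the count was 1 of 14 (7.14%), with PTPRC 30.6 kb away. These lists are too short for such counts to be told from the 4.12% of all protein-coding genes. ITGB2, the leukocyte integrin chain with a cluster described above, is not in the blood list. Genes that lie close together can share a cluster, so the counts are not independent. The cluster described for a gene is the one nearest to its TSS, and further clusters within 100 kb are given where stated.

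**Figure D5:**
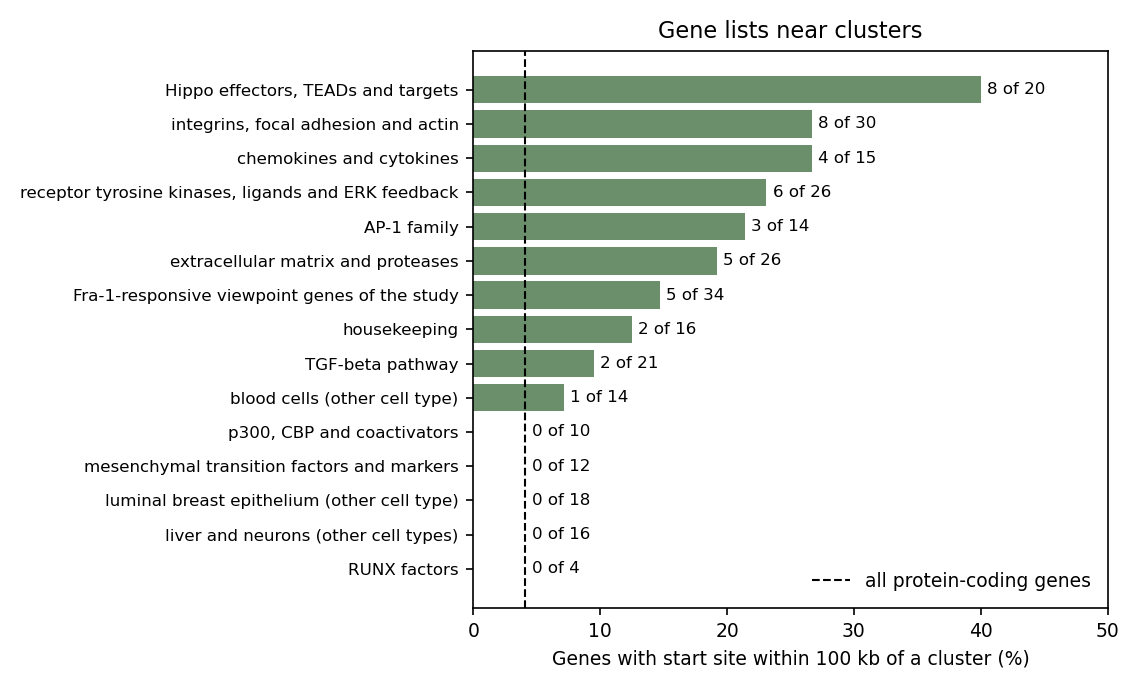
Percentage of the genes of each list whose TSS lies within 100 kb of a cluster (horizontal axis), with the number of genes beside each bar and the share of all protein-coding genes, 4.12%, as a dashed line. The Hippo list is highest with 8 of 20 genes, and 5 lists have none.

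The nearest clusters of the Hippo genes were searched for the TEAD and AP-1 motifs. These 8 clusters held 29 sites, of which 21 (72.4%, 95% interval 54.3 to 85.3) contained GGAATG over their whole length, against 43.6% (41.1 to 46.2) of the sites of all arm clusters, and 3 (10.3%, 3.58 to 26.4) contained AP-1, against 35.0% (32.6 to 37.5). Over every cluster within 100 kb, which adds 1 each for CCN1 and AMOTL2, 25 of 36 sites (69.4%, 53.1 to 82.0) contained GGAATG and 6 (16.7%, 7.87 to 31.9) AP-1. High shares of GGAATG were not limited to this list, with 14 of 21 sites (66.7%, 45.4 to 82.8) for the TGF-beta pathway, whose 2 clusters near ID1 lie within 1 Mb of a large gap, and 9 of 16 (56.2%, 33.2 to 76.9) for matrix and protease genes over every cluster. ANKRD1 and CCN1, classical targets of YAP, each had their TSS within a cluster of 3 sites that all held GGAATG and none AP-1. The wide peaks of ANKRD1 measured 700 and 950 bp at the first and last site in siCTL, with no peak of any width at the middle one, and 900, 550 and 1600 bp in siFra-1. At CCN1 the first site had a narrow siCTL peak and no wide one, the others measured 400 and 400 bp, and the siFra-1 peaks measured 500, 450 and 650 bp. The wide peak was thus longer in siFra-1 at each of these sites, with covered lengths of 3050 against 1650 bp and 1600 against 800 bp.

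At F3, which encodes tissue factor, a cluster of 7 sites lay 60.5 kb from the TSS, 4 of them wide in siCTL (1800 bp) and all 7 in siFra-1 (3100 bp). CRIM1 had a cluster of 4 sites (800 and 1700 bp), and AJUBA, AMOTL2, NUAK2 and NT5E had clusters of 3. All 8 nearest clusters of the list had more covered length in siFra-1, as had 84.3% of arm clusters, from 1450 against 1100 bp at NUAK2, a kinase, and 700 against 600 bp at AJUBA, a LIM protein that inhibits LATS kinases, to 1300 against 400 bp at AMOTL2, which binds YAP.

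The gene silenced in this experiment had a cluster of its own. FOSL1 had 5 sites over 16.9 kb, from inside the gene to upstream of its TSS, and all 5 were wide in both lists, which was so in 34 of the 389 arm clusters. Their widths were 250, 800, 700, 650 and 750 bp in siCTL and 250, 700, 500, 650 and 850 bp in siFra-1, or 3150 and 2950 bp in sum, and 3 of the 5 held AP-1. JUN, the main partner of Fos proteins, had a cluster of 3 sites 97.5 kb away (700 and 1450 bp). MAFF, a small Maf protein, had a cluster of 3 sites 17.8 kb away (1200 and 1000 bp). The 11 sites of these 3 clusters included 9 shared ones and 6 with AP-1.

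Of the 35 sites nearest to the 8 integrin, focal adhesion and actin genes, 24 were shared, against 44.5% of the sites of all arm clusters, and 15 (42.9%, 28.0 to 59.1) held AP-1, an interval that includes the 35.0% of all arm clusters. ITGA3, an integrin chain for laminins, had 4 sites, all shared (1850 and 2450 bp), and ITGB4, an integrin chain of hemidesmosomes, had 6 (1450 and 2750 bp). PLAU, the urokinase protease, had its TSS in a cluster of 4 sites that were all shared, all held AP-1 and differed little, 600, 650, 600 and 650 bp in siCTL and 550, 550, 750 and 600 bp in siFra-1. The same cluster is 85.7 kb from VCL, a focal adhesion protein.

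Near the 6 receptor and ERK feedback genes, 16 of the 24 sites were shared and 13 (54.2%, 35.1 to 72.1) held AP-1, against 44.5% and 35.0% in all arm clusters. EGFR, the receptor of EGF, had 4 sites in a cluster 46.7 kb from its TSS, all with AP-1 (1300 and 1750 bp). EPHA2, an ephrin receptor, had 5 (2650 and 4100 bp). DUSP5, a phosphatase that acts on ERK, had 6 in a cluster 82.7 kb from its TSS (3550 and 4400 bp). DUSP6, another ERK phosphatase, had 3 sites around its TSS (850 and 1600 bp) and none held AP-1.

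Among matrix genes, LAMB3, a laminin chain, had 3 sites 0.532 kb from its TSS (750 and 1250 bp). COL1A1, a collagen chain, had 3 at 8.91 kb (250 and 1150 bp). A cluster that overlaps IKBKB, 84.3 kb from the TSS of PLAT, a plasminogen activator, had no wide siCTL peak against 1050 bp in siFra-1. Narrow siCTL peaks overlapped some of its sites. CXCL2, a chemokine, had 3 sites 0.489 kb away (750 and 1400 bp), also counted for CXCL3. CSF1, a macrophage growth factor, had 4 at 49.5 kb (1600 and 2250 bp), in a cluster nearer to the TSS of AHCYL1. LIF, a cytokine, had 3 (650 and 1500 bp) beside a further cluster of 6 sites 33.7 kb away (4100 and 4850 bp). In the TGF-beta pathway, SMAD3, which carries the signal to the nucleus, had 3 clusters within 100 kb. The nearest, of 3 sites 13.8 kb away, had no wide siCTL peak and 1350 bp in siFra-1. The others, of 5 sites 27.5 kb away and 3 sites 80.9 kb away, had wide peaks in both lists (1400 and 2300 bp, and 1150 and 1400 bp).

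Of the viewpoint genes, HK2, a hexokinase, had a cluster of 6 sites over 25.1 kb, none of them wide in siCTL, with 250 to 450 bp each in siFra-1 and a narrow siCTL peak at 3 of the 6. FNDC3B had 5 sites in a cluster 90.4 kb from its TSS, 1 wide in siCTL (600 and 2350 bp). ID1, a target of BMP signalling whose cluster lies within 1 Mb of an assembly gap, had 4 sites, 2 wide in siCTL and all in siFra-1 (950 and 2600 bp), and a further cluster of 6 sites lay 90.5 kb away (3700 and 4600 bp). ASB1, an ankyrin repeat protein, had 3 sites in siCTL and 2 in siFra-1 (1300 and 900 bp), and was with FOSL1 one of the viewpoint genes with less covered length in siFra-1.

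MicroRNA genes near clusters were listed after the clusters were seen. Of 3026 annotated, 21 (0.694%) started within 10 kb of a cluster. MIR21 lies inside the VMP1 cluster, at chr17:57918627-57918698. MIR23A and MIR27A, transcribed together, start 0.129 and 0.271 kb from a cluster on chromosome 19 of 4 sites with equal covered length in both lists (2550 and 2550 bp), 3 of them shared. A mature form of each, from RefSeq (GRCh38.p14), is printed with its seed, bases 2 to 8, in capitals, and the 3 seeds differ.
hsa-miR-21-5p: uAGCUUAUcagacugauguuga
hsa-miR-23a-3p: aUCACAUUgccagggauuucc
hsa-miR-27a-3p: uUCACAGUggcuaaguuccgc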

How the data were processed

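The deposited files are 2 lists of peak positions on hg19, without counts, signal or p-values. According to the authors' methods, reads were aligned with BWA, whereas the submitters' processing notes name Bowtie2. Signal was scaled and background-subtracted with PASHA in bins of 50 bp, and peaks were runs above a threshold of 25 (maximum gap 50 bp, minimum run 50 bp) in the Integrated Genome Browser. Another processing parameter, of unstated meaning, differed between the libraries. Scaling and a fixed threshold set the number and width of peaks, so a difference in enrichment or depth acts on them as a difference in occupancy would.

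Sites, clusters and overlaps (at least 1 bp) were computed in Python 3.11.15 with pandas 2.3.3 and pysam 0.24.0 and tested on simulated data against bedtools 2.31.1. Printed starts were raised by 1 and may be 1 bp off. Genes were those of GENCODE release 44 lifted to GRCh37, 20090 of them protein-coding with distinct symbols. Motifs were searched on both strands of the 200 bp centred on a site, or in the whole site for named clusters. Shares have Wilson, differences Newcombe and ratios Clopper-Pearson 95% intervals.

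Named were the 12 arm clusters with most sites, the 5 with the largest difference in covered length in each direction, and up to 4 genes per list, with others added where a list was followed. Some of the genes so named are not reported here. The members and lists were chosen with earlier results of these data known. Alternatives changed the minimum width (150, 400 bp), joining gap (5, 25 kb), merging (500 bp), peaks near large gaps, list size, and the motif, promoter and gene windows.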

Additional observations from a re-analysis of the deposited data

How the results depend on the processing

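Over 9 results and their alternatives, 38 of 76 values stayed within the interval of the value reported, or within 1.5 times a count, and 2 changed sign. With a minimum width of 150 bp there were 1334 clusters, a member peak ratio of 1.18, a covered length ratio of 1.47, differences (percentage points) of 11.3 in the share of wide peaks that are clustered (siFra-1 minus siCTL, 1.78 as reported for all clusters, interval -0.0755 to 3.62), 17.0 in shared sites, 1.28 in AP-1 (reversed) and -1.25 in promoters. With 400 bp there were 160 clusters and ratios of 1.95 and 2.13, and the difference in clustered share was reversed to -0.713. With a joining gap of 5 kb there were 244 clusters and differences of 5.0 in shared sites, -11.1 in AP-1 and -3.77 in promoters, and with 25 kb the AP-1 difference was -5.04. Merging peaks within 500 bp gave 12.8 for shared sites, -4.37 for AP-1, -1.27 for promoters (interval up to 0.0352) and 3.35% of protein-coding genes near a cluster. Leaving out peaks near large gaps gave 11.9, -2.29 for AP-1 and a narrow peak ratio of 0.673. The siFra-1 list was also reduced to its widest peaks, equal in number to the siCTL wide peaks. This gave 262 clusters, ratios of 1.09 and 1.47, a narrow peak ratio of 0.833 and 2.68% of genes. An AP-1 window of 400 bp gave -10.1, a promoter window of 1 kb gave -1.04, and TSS distances of 50 and 250 kb gave 2.2% and 9.77% of genes. Added after seeing the data, leaving out peaks near gaps gave an AP-1 difference of -2.25 with unclustered sites weighted by width and, with the reduced siFra-1 list, 237 clusters, ratios of 1.13 and 1.45, 11.9 for shared sites and -0.23 for AP-1. The causes of these shifts were not tested. No paired analysis was possible because each condition has 1 library.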
